A study of Mus musculus with 4 samples.

Results

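The genes described here are 4 Janus kinases (JAKs), *Jak1*, *Jak2*, *Jak3* and *Tyk2*, and 5 signal transducers and activators of transcription (STATs), *Stat2*, *Stat3*, *Stat5a*, *Stat5b* and *Stat6*. They were chosen by name as JAKs and STATs, with earlier results of these data known, and are 9 of 55359 gene identifiers in the count file. All 9 were among the 14637 genes with enough counts to be tested. Bulk RNAseq had been performed on T8, a mouse B-cell progenitor acute lymphoblastic leukemia line of *Irf4*-/- genotype, a day after transduction with a retrovirus (RV). The EV-RV group (2 libraries) received the empty vector coding for GFP alone, and the IRF4-RV group (2 libraries) received the vector that also codes for the transcription factor IRF4. All 4 libraries thus share the *Irf4*-/- genotype, the leukemic origin and the exposure to virus. Per the study's methods, the line was grown from the primary tumor of 1 mouse, first on irradiated ST2 stromal cells with an IL-7 supernatant, so the libraries stand for 1 line and not for separate animals. The study also describes a somatic *Jak3* substitution in this tumor, and counts per gene do not separate alleles.

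JAKs are tyrosine kinases held at the inner tails of cytokine receptors, and they activate each other when a cytokine brings receptor chains together. They then phosphorylate STATs, which pair, enter the nucleus and bind DNA. In B-cell progenitors, the IL-7 receptor uses JAK1 on the IL-7Rα chain and JAK3 on the common γ-chain and acts chiefly through STAT5A and STAT5B. The TSLP receptor pairs IL-7Rα with CRLF2, which binds JAK2. Type I interferon receptors use JAK1 and TYK2, and their signal passes through a complex of STAT2 with IRF9 that binds interferon-stimulated response elements (ISRE).

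Library totals were 31686715 (EV-RV 1), 31230223 (EV-RV 2), 34771970 (IRF4-RV 1) and 37817752 counts (IRF4-RV 2). Levels are given as CPM, each count divided by the scaled total of its library, and a floor of 3 counts, which covers counting error only, was 0.0824 to 0.0952 CPM, far below each member. *Irf4* itself had 8070 and 7600 counts in EV-RV and 95578 and 90693 in IRF4-RV, a log2 fold change of 3.46 (SE 0.0907, edgeR adjusted p = 1.14e-06). Vector and genomic reads are not separated in these counts. The empty vector codes for GFP alone, and the source of the EV-RV *Irf4* counts in this *Irf4*-/- line was not tested. The fold change is thus not a measure against normal *Irf4* expression. Of 10 B-lineage markers, 9 were tested, and *Cd79a* had 29068 to 33036 counts while *Rag1* had at most 1. *Vpreb1* and *Igll1* were called lower (-1.49 and -1.30) and *Blnk* higher (1.04), and the other 6 were not called. For 7 of the 9, both IRF4-RV libraries lay below both EV-RV libraries, an order that held for 29.9% of all genes tested. Among the 7 were *Cd79a* and *Cd79b*, each with a log2 fold change of only -0.01. T and NK markers summed to 20.7 and 21.2 CPM in EV-RV and 13.6 and 14.0 in IRF4-RV, mostly from *Trac*, with *Cd8a* at 0. Macrophage markers summed to 1.5 and 1.49 CPM in EV-RV and 8.59 and 7.55 in IRF4-RV, mostly from *Mrc1*, which rose by 3.26 (adjusted p = 4.94e-05), with *Adgre1* at 0. Granulocyte markers summed to 0.24 and 0.349 CPM in EV-RV and 3.34 and 3.87 in IRF4-RV, mostly from *Ly6g* (1 and 0 counts against 71 and 58) and *Lcn2* (1 and 5 against 39 and 75), with *S100a8* at 0. Stromal markers summed to 51.1 and 93.4 CPM in EV-RV and 49.6 and 226 CPM in IRF4-RV, so they differed between libraries of 1 group. The part of these markers in the members' values was not tested. In bulk RNA, a change in the mix of cells and a change in RNA per cell cannot be told apart.

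Genes were called at a false discovery rate (FDR) of 0.1, the study's cutoff, with edgeR's quasi-likelihood test adjusted over all genes tested. Of the 9 members, 3 were higher with IRF4-RV, where 16.0% of all genes tested were called higher. None of the 9 was called lower, where 13.7% of all genes were, and 29.7% were called in either direction. The 3 were *Stat2*, *Stat6* and *Stat3*, and none of the 4 kinases was called in this fit. Libraries of the groups did not overlap for 6 members, each time with the IRF4-RV libraries higher, which held for 31.3% of all genes tested. The opposite order without overlap held for 0 members and 29.9% of all genes, and 61.3% did not overlap in either order. With the replicate number as a block, 6 members were called, where 43.7% of all genes were called in either direction. The 3 that this fit adds are the kinases *Jak2*, *Jak3* and *Tyk2* (adjusted p = 0.00375, 0.0192 and 0.0495). The median log2 fold change was 0.18 over the 9 members, 0.35 over the 5 STATs and 0.18 over the 4 kinases, beside 0.01 over all genes tested. Unadjusted p-values were under 0.05 for 5 of the 9, and for 34.5% of all genes tested. With 2 libraries per group, these p-values measure the spread between libraries, which may be technical.

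**Figure D1:**
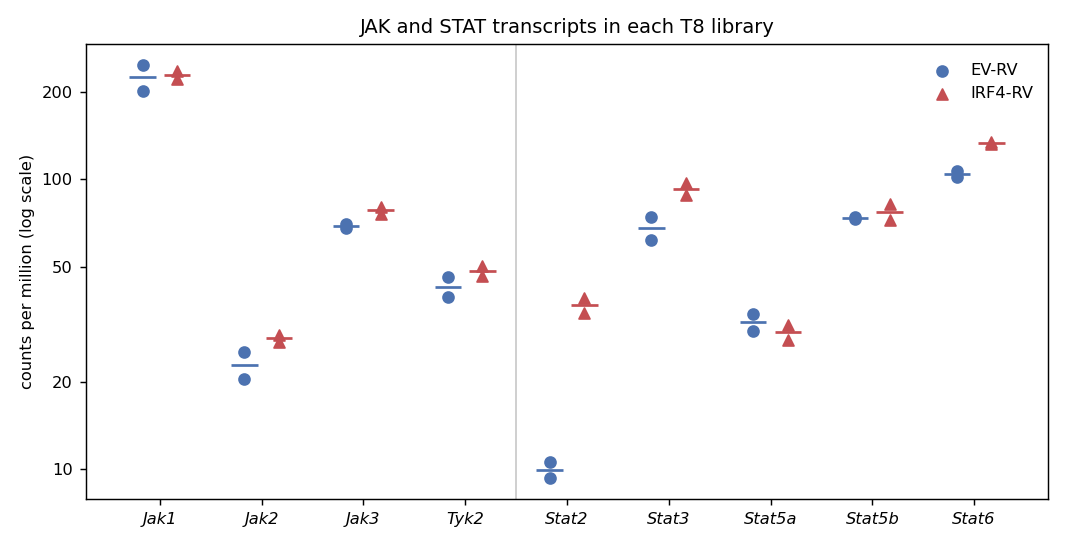
Level of each kinase (left of the line) and STAT (right of it) in CPM on a log axis, with 1 circle per EV-RV library, 1 triangle per IRF4-RV library and a dash at the group mean. *Stat2* moved from 9.32 and 10.6 CPM to 34.7 and 38.9 CPM, while the EV-RV and IRF4-RV symbols of *Jak1*, *Stat5a* and *Stat5b* overlap.

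The promoter windows of the 3 members that rose are shown with that of *Stat5a*, the member with the lowest log2 fold change, because *Stat2* differs from the rest in them. Each is the stretch of 250 bases before the RefSeq start of the gene in GRCm38.p6, written 5′ to 3′ along the gene. They are *Stat2* (chr10:128270248-128270497, plus strand), *Stat3* (chr11:100939541-100939790, minus strand), *Stat6* (chr10:127642736-127642985, plus strand) and *Stat5a* at the first of its 2 listed starts (chr11:100859406-100859655, plus strand). Capitals mark a match to the ISRE core or to the ETS-IRF composite element.
Stat2: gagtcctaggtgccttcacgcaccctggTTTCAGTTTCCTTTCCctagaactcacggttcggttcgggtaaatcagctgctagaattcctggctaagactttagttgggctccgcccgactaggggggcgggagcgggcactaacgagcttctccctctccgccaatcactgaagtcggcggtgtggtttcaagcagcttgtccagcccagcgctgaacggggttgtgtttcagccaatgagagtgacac
Stat3: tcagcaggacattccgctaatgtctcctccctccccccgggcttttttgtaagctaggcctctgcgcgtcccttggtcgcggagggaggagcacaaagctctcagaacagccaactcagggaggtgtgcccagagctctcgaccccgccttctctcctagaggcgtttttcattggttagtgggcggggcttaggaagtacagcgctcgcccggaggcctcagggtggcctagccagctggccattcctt
Stat6: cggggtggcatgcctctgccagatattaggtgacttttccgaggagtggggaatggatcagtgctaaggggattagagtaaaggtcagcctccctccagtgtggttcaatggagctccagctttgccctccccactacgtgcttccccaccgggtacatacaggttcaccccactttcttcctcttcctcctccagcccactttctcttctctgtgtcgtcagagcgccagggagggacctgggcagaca
Stat5a: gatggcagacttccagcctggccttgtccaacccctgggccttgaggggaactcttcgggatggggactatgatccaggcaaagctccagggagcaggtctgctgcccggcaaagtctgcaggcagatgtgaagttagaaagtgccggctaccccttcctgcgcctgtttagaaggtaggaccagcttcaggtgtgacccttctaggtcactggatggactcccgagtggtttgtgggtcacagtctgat

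Both strands of these windows were searched for 4 sets of letters. They were the STAT palindrome GAS (TTCNNNGAA), the ISRE core (GAAANNGAAA), the ETS-IRF composite element (GGAANNGAAA), to which IRF4 can bind with an ETS-family partner, and the ETS core (GGAA). RefSeq gave 11 windows for the 9 members, since *Stat5a* and *Stat5b* have 2 starts each. The ISRE core was found in *Stat2* only, on the minus strand from 222 bases before the start, and it is present in 2.98% of all 32851 promoter windows. The composite element was also found in *Stat2* only, from 216 bases before the start on the minus strand, and it is present in 2.3% of all windows. The matches overlap by 4 bases, so they are not independent. GAS was found in none of the 11, and is present in 7.02% of all windows. The ETS core, which is part of the composite, was in each of the 11 and in 93.4% of all windows. A match is a description of letters, and binding was not measured here.

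**Figure D2:**
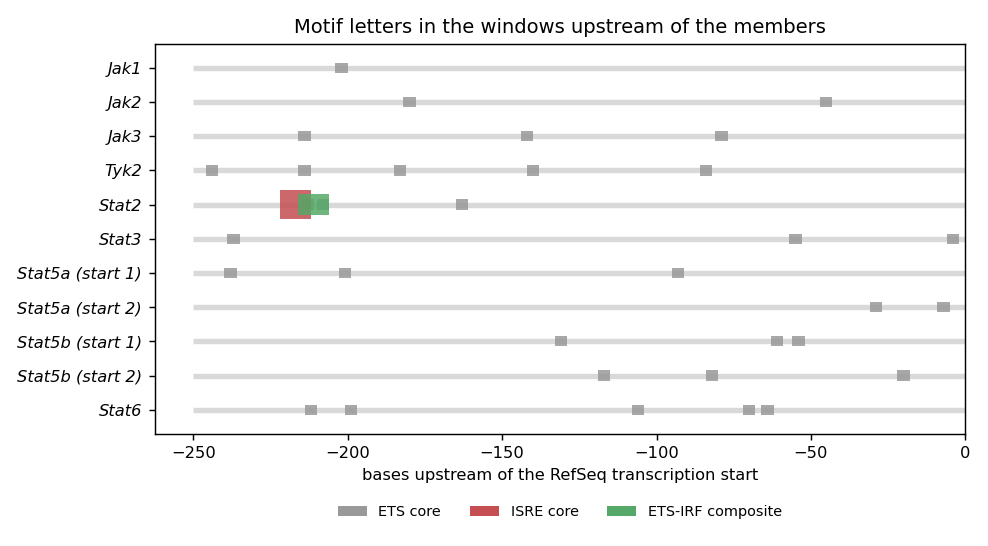
Positions of motif letters in the windows of 250 bases upstream of the RefSeq starts of the 9 members, with 1 line per start and the x axis in bases from the start. *Stat2* alone carries the ISRE core and the ETS-IRF composite, which overlap, while the ETS core occurs in each window.

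*Jak1*, the kinase shared by the IL-7, interferon and IL-6 family receptors, showed no difference beyond the spread of its libraries. It lies at chr4:101152367-101265282 on the minus strand of GRCm38. Its counts were 8273 and 6349 in EV-RV and 7959 and 8046 in IRF4-RV, or 248 and 201 CPM against 235 and 221 CPM. Both IRF4-RV libraries lay between the EV-RV libraries. The log2 fold change was 0.02 (SE 0.105, adjusted p = 0.913), with a 95% interval from -0.22 to 0.26. Its direction turned to -0.12 without EV-RV replicate 2 and to -0.04 without IRF4-RV replicate 1.

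*Jak3*, the kinase of the common γ-chain, lies at chr8:71676296-71690575 on the plus strand. It had 2328 and 2130 counts in EV-RV and 2578 and 2911 in IRF4-RV, or 69.8 and 67.6 CPM against 76.1 and 80.0 CPM. The IRF4-RV libraries were both higher, by a narrow margin. The log2 fold change was 0.18 (SE 0.078), its 95% interval ran from 0.00 to 0.37, and it did not pass the cutoff without the block (adjusted p = 0.138). *Jak3* shares 404 exonic bases with *Insl3* on the same strand, and *Insl3* had 1 to 4 counts per library.

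*Jak2*, the kinase that serves the TSLP receptor as well as the IL-3 and GM-CSF receptors, lies at chr19:29251828-29313080 on the plus strand. It had 845 and 642 counts in EV-RV and 984 and 1003 in IRF4-RV, or 25.3 and 20.4 CPM against 29.1 and 27.5 CPM. The groups did not overlap, but the EV-RV libraries stood further from each other than the nearest libraries of the groups did. The log2 fold change was 0.31 (SE 0.121, adjusted p = 0.113), with a 95% interval from 0.03 to 0.59. *Jak2* passed the cutoff without EV-RV replicate 1 (log2 fold change 0.47, adjusted p = 0.0363) and without IRF4-RV replicate 2 (0.35, adjusted p = 0.0901). With all 4 libraries, it also passed with the replicate block, as given above, and with a filter of 1 count (adjusted p = 0.0564).

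*Tyk2*, the partner of JAK1 at the type I interferon receptor, lies at chr9:21104068-21131243 on the minus strand. It had 1532 and 1238 counts in EV-RV and 1699 and 1690 in IRF4-RV, or 45.9 and 39.3 CPM against 50.2 and 46.4 CPM. The groups were separated by less than 1 CPM. The log2 fold change was 0.18 (SE 0.103, adjusted p = 0.263), with a 95% interval from -0.06 to 0.42. The upper ends of the intervals of the 4 kinases lay between 0.26 and 0.59, so rises up to these sizes remain within the error of the data.

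*Stat2*, the STAT of the interferon complex with IRF9, rose most among the members. It lies at chr10:128270559-128292849 on the plus strand. Its counts were 354 and 294 in EV-RV and 1317 and 1263 in IRF4-RV, or 10.6 and 9.32 CPM against 38.9 and 34.7 CPM. Both IRF4-RV libraries were far above both EV-RV libraries. The mean went from 9.97 ± 0.909 CPM (SD, n = 2) to 36.8 ± 2.97 CPM (SD, n = 2), a 3.69-fold rise with a log2 fold change of 1.88 (SE 0.114, adjusted p = 3.2e-05). Its 95% interval, 1.62 to 2.15, lay above the intervals of the other 8 members. Fits without 1 of the libraries gave 1.78 to 1.97.

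*Stat6*, the STAT that answers IL-4 and IL-13, lies at chr10:127642986-127660957 on the plus strand. It had 3585 and 3209 counts in EV-RV and 4469 and 4886 in IRF4-RV, or 107 and 102 CPM against 132 and 134 CPM. The spread within each group was small beside the distance between the groups. The mean went from 105 ± 4.01 CPM to 133 ± 1.59 CPM (SD, n = 2 each), a 1.27-fold rise with a log2 fold change of 0.35 (SE 0.0743, adjusted p = 0.0132). It remained called with each library left out, at 0.31 to 0.38.

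*Stat3*, the STAT of IL-6, IL-10 and related cytokines, lies at chr11:100885098-100939540 on the minus strand. It had 2475 and 1949 counts in EV-RV and 3285 and 3204 in IRF4-RV, or 74.2 and 61.8 CPM against 97.0 and 88.0 CPM. The groups did not overlap, with EV-RV 1 closest to IRF4-RV. The mean went from 68.0 ± 8.74 CPM to 92.5 ± 6.36 CPM (SD, n = 2 each), a 1.36-fold rise with a log2 fold change of 0.44 (SE 0.106, adjusted p = 0.0208). Leaving out libraries in turn gave 0.32 to 0.57, and *Stat3* was called each time.

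*Stat5a* and *Stat5b*, the STATs through which IL-7 chiefly acts, were not called. *Stat5a* lies at chr11:100859351-100885169 on the plus strand and had 1143 and 947 counts in EV-RV and 1068 and 1021 in IRF4-RV. In CPM these were 34.3 and 30.0 against 31.5 and 28.0, and the groups overlapped. Its log2 fold change was -0.11 (SE 0.108, adjusted p = 0.518), with a 95% interval from -0.36 to 0.14. *Stat5b* lies at chr11:100780731-100850724 on the minus strand and had 2475 and 2294 counts in EV-RV and 2787 and 2632 in IRF4-RV. In CPM these were 74.2 and 72.8 against 82.3 and 72.3, with IRF4-RV 2 below both EV-RV libraries. Its log2 fold change was 0.07 (SE 0.0888, adjusted p = 0.614), with a 95% interval from -0.13 to 0.28. Without IRF4-RV replicate 1 it turned to -0.04.

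**Figure D3:**
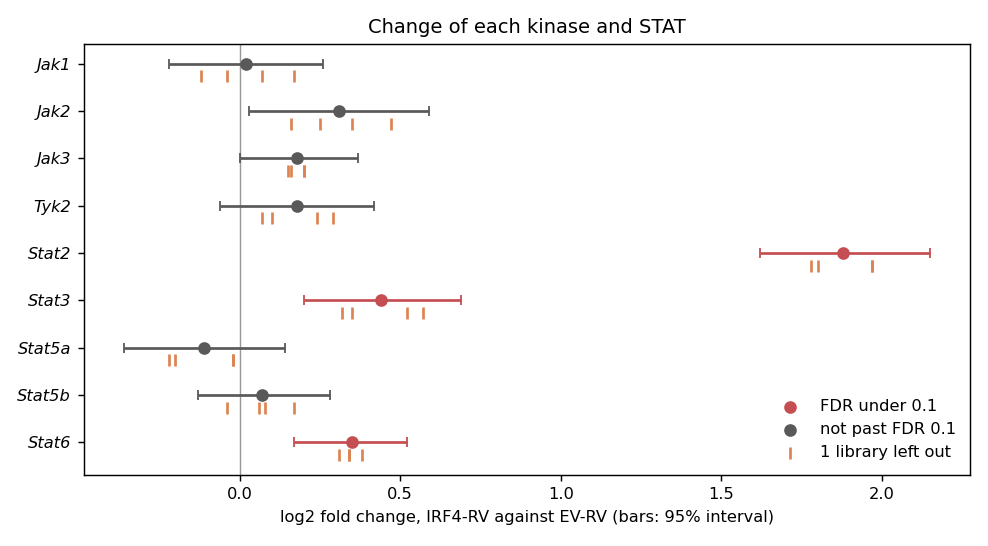
Log2 fold change of IRF4-RV against EV-RV for each member (x axis), with bars for the 95% interval, red for genes past an FDR of 0.1 and ticks for the fits that leave out 1 library. *Stat2*, at 1.88, stands apart from the other members, which lie between -0.11 and 0.44.

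*Stat5b*, *Stat5a* and *Stat3* lie side by side on chromosome 11. *Stat5b* and *Stat5a* point away from each other with a gap of 8627 bp, and *Stat5a* and *Stat3* run toward each other and share 72 exonic bases at their ends. Of the 3, *Stat3* alone was called, although the difference between its change and that of its neighbors was not tested. The genes on either side of this cluster, *Ghdc* and *Cavin1*, were not called, with log2 fold changes of 0.04 and 0.74 (adjusted p = 0.853 and 0.448). *Cavin1* had 1.77 and 3.33 CPM in EV-RV and 1.48 and 7.0 CPM in IRF4-RV, so its groups overlapped. *Stat6* and *Stat2* are both on chromosome 10, 609.6 kb apart with 26 protein-coding genes between them. *Stat6* shares 40 exonic bases with *Nab2* on the opposite strand. *Nab2* had 869 and 877 counts in EV-RV and 996 and 1038 in IRF4-RV. Among protein-coding genes that do not overlap *Stat6*, the next after it, *Nemp1*, was called higher (0.53, adjusted p = 0.00349). Its log2 fold change was larger than that of *Stat6* (0.35). On the other side of *Stat6*, *Lrp1* was not called (0.57, adjusted p = 0.514). *Lrp1* had 3.24 and 6.6 CPM in EV-RV and 3.07 and 11.5 CPM in IRF4-RV, also with overlap. The genes on either side of *Stat2*, *Apof* and *Il23a*, had too few counts to be tested. *Stat5a* and *Stat5b* share stretches of 50 identical bases over 8.208% and 10.985% of their transcript positions, so reads from these stretches could be split or lost in counting. Whether counting used the strand is not given in the sources used here. This leaves reads from the bases shared by *Stat5a* and *Stat3*, and by *Stat6* and *Nab2*, uncertain. *Tyk2* likewise shares 554 exonic bases with an antisense gene, which had at most 2 counts per library.

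Levels of different genes were compared as CPM per kb of exon. In EV-RV the mean level per kb was highest for *Jak1* (31.1), followed by *Stat6* (23.8), *Stat5b* (13.3), *Jak3* (12.8), *Stat3* (7.14), *Tyk2* (6.2), *Jak2* (4.54), *Stat5a* (4.51) and *Stat2* (1.68). Neighbors in this order overlapped between libraries for *Stat3* and *Tyk2* and for *Jak2* and *Stat5a*. In IRF4-RV the mean level per kb of *Stat2* was 6.21, above *Jak2* (5.63) and *Stat5a* (4.18), without overlap. *Jak3* (14.6 CPM per kb) and *Stat5b* (14.0 CPM per kb) overlapped in IRF4-RV, and *Jak1* (31.5 CPM per kb) and *Stat6* (30.2 CPM per kb) stood next to each other at the top, without overlap.

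Summed over the 5 STATs, the level was 52.2 and 48.5 CPM per kb in EV-RV and 66.0 and 62.6 CPM per kb in IRF4-RV. *Stat2* held 3.43% and 3.24% of this sum in EV-RV and 9.94% and 9.36% in IRF4-RV. *Stat5a* and *Stat5b* together took a smaller share, with *Stat5b* at 25.7% and 27.1% in EV-RV and 22.5% and 20.9% in IRF4-RV. *Stat5a* held 9.2% and 8.68% in EV-RV and 6.7% and 6.28% in IRF4-RV. These shares fell while the CPM of both genes overlapped between groups, since a share also depends on the other STATs. *Stat6* held the largest part of the sum in each library, at 45.4% to 48.7%. The 4 kinases summed to 59.1 and 50.3 CPM per kb in EV-RV and 59.8 and 57.8 in IRF4-RV, and these ranges overlapped. *Jak1* held 52.9% to 58.1% of the kinase sum and *Jak3* 22.1% to 25.9%. The ratio of *Jak1* to *Jak2* per kb was 6.81 and 6.88 in EV-RV and 5.63 and 5.58 in IRF4-RV, a ratio that varied little within each group. That of *Jak1* to *Jak3* was 2.63 and 2.21 in EV-RV and 2.29 and 2.05 in IRF4-RV. That of *Jak3* to *Jak2* was 2.59 and 3.12 in EV-RV and 2.46 and 2.73 in IRF4-RV. Both of these overlapped between groups, and no ratio was tested.

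**Figure D4:**
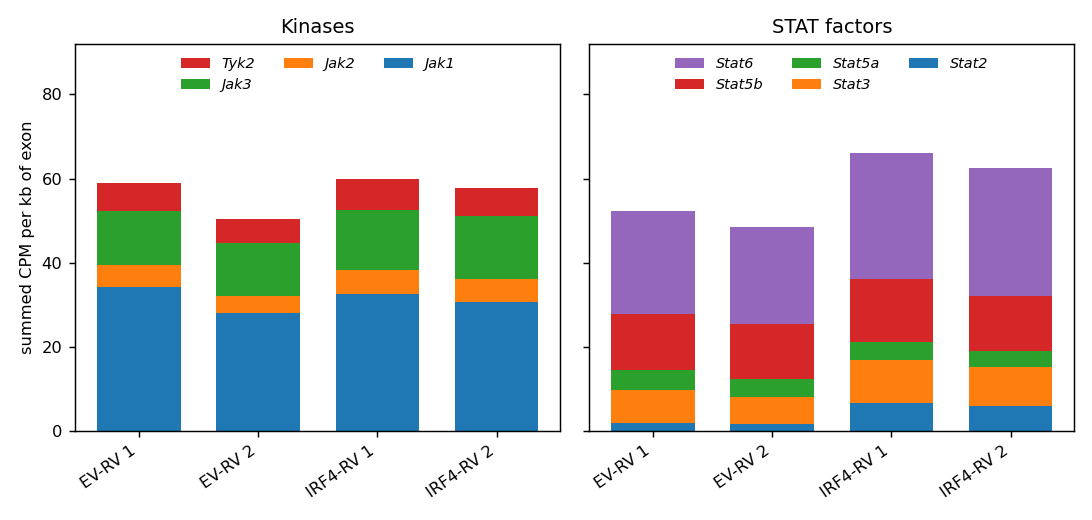
Summed level per length (CPM per kb of exon) in each library, stacked by gene, for the 4 kinases and the 5 STATs. The STAT sum is higher in both IRF4-RV libraries (66.0 and 62.6) than in EV-RV (52.2 and 48.5), while the kinase sums overlap.

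Libraries of the same group differed among these genes. Each of the 9 members was higher in EV-RV 1 than in EV-RV 2, with log2 ratios of 0.03 to 0.31. Over the 12341 genes with a mean of at least 1 CPM, the median of this ratio was -0.01, with 5% of genes below -0.33 and 5% above 0.46. The largest ratios were those of *Jak2* (0.31), *Jak1* (0.30) and *Stat3* (0.26). Summed stromal markers had the opposite order, with 51.1 CPM in EV-RV 1 and 93.4 CPM in EV-RV 2. The same order held for them in IRF4-RV, with 49.6 CPM in replicate 1 and 226 CPM in replicate 2. In IRF4-RV, 7 of the 9 members were likewise higher in replicate 1, with log2 ratios of 0.08 to 0.19, and *Jak3* (-0.07) and *Stat6* (-0.02) were lower.

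Cytokine receptor chains that bind JAKs moved in both directions. Of 39 chains, 29 were tested, and 11 were higher and 4 lower with IRF4-RV, with a median log2 fold change of 0.35. For comparison with this and the later lists, 16.0% of all genes tested were called higher and 13.7% lower. *Il7r*, the IL-7Rα chain, fell by 0.29 on the log2 scale, from 44.2 ± 0.564 to 36.2 ± 3.36 CPM (adjusted p = 0.0686). *Il2rg*, the common γ-chain that carries JAK3, rose from 33.2 ± 1.24 to 39.5 ± 0.758 CPM (log2 fold change 0.25, adjusted p = 0.0781). Both changes were under 1.3-fold. *Crlf2*, the TSLP chain that carries JAK2, had 55.2 ± 3.56 and 63.3 ± 4.93 CPM (0.20, adjusted p = 0.178), and *Il4ra*, the IL-4 receptor chain upstream of STAT6, had 16.7 ± 1.19 and 13.6 ± 1.6 CPM (-0.30, adjusted p = 0.13). Neither was called.

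Larger changes were found among other chains. *Ifnar1* and *Ifnar2*, the type I interferon receptor chains that carry TYK2 and JAK1, rose by 1.02 and 0.69 (adjusted p = 0.000675 and 0.00116) and are named here after their values were seen. Also named after their values were seen, *Il21r* fell by 1.22 (adjusted p = 0.000884) and further chains rose. These were *Ifnlr1*, *Il5ra*, *Il10rb* and *Ifngr2* (1.1, 1.01, 0.85 and 0.41, adjusted p = 0.00112, 0.00918, 0.00133 and 0.0164). *Il2ra*, the IL-2 receptor α-chain, rose from 16.3 ± 1.53 to 55.8 ± 8.75 CPM (1.77, adjusted p = 8.32e-05). *Il12rb1* and *Il10ra* rose by 1.52 and 1.51 (adjusted p = 0.00463 and 0.0148). *Il6ra*, the IL-6 receptor chain upstream of STAT3, had 3 and 1 counts in EV-RV and 99 and 73 in IRF4-RV. It passed the filter on low counts through IRF4-RV alone, so no test is given for it, and without it 10 of 28 chains were higher, with a median of 0.34. *Csf2rb*, the common β-chain that uses JAK2, fell by 1.47 from 51.9 ± 1.63 to 18.7 ± 0.554 CPM (adjusted p = 3.21e-05). *Csf2rb2*, its near-identical copy, fell by 2.87 (adjusted p = 0.00041). Because these copies share sequence, counts may be split between them.

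Of 25 negative regulators of JAK-STAT signaling, all tested, 9 were higher and 1 lower, beside 16.0% and 13.7% of all genes tested. Their median log2 fold change was 0.08. *Usp18*, which restrains the interferon receptor, rose from 1.54 ± 0.105 to 75.1 ± 11.2 CPM (5.60, adjusted p = 1.38e-06). *Sh2b3* (LNK, an adaptor that restrains JAK2), *Ptprc* (the CD45 phosphatase), *Cblb* and *Socs7* rose by 0.57, 0.53, 0.46 and 0.44 (adjusted p = 0.00549, 0.0109, 0.0192 and 0.0117). *Socs5* fell by 0.85 (adjusted p = 0.00327). Of 20 genes listed as partners and cofactors of STATs, 18 were tested, with 9 higher and 2 lower and a median of 0.29. The list also holds signaling adaptors such as *Grb2*, so these counts are not of STAT partners alone. *Irf9*, the DNA-binding partner of STAT2, rose from 20.5 ± 1.12 to 67.3 ± 3.88 CPM (1.72, adjusted p = 2.27e-05). *Parp14*, a cofactor of STAT6, rose by 1.83 (adjusted p = 7.97e-05). *Lmo4* and *Nmi* rose by 0.91 and 0.82 (adjusted p = 0.000216 and 0.000843). *Sos1*, a Ras exchange factor that the list also holds, rose by 0.64 (adjusted p = 0.00742).

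Of 26 known targets of the STAT2-IRF9 complex, 25 were higher and 1 lower, with a median log2 fold change of 2.19. *Stat2* and *Irf9* are themselves in this list, as is *Usp18*. Of the 26, 5 passed the filter on low counts through IRF4-RV alone (*Rsad2*, *Ifit1*, *Ifit3*, *Mx1* and *Mx2*) and had to differ, and of the other 21 genes, 20 were higher, with a median of 1.88. *Rsad2* (viperin, an antiviral enzyme) had 7 and 5 counts in EV-RV and 870 and 862 in IRF4-RV. *Isg15*, a ubiquitin-like protein, went from 1.98 ± 0.559 to 60.0 ± 4.52 CPM (4.92, adjusted p = 2.35e-06). The IRF4-RV libraries were above the EV-RV libraries for each gene that rose. *Ifi44* rose by 4.61 (adjusted p = 2.35e-06), *Ifit3* had 8 and 7 counts in EV-RV and 155 and 348 in IRF4-RV, and *Ifit1* had 3 and 0 against 92 and 221. The gene that fell was *Ifi27* (-0.68, adjusted p = 0.00113), named here after its value was seen.

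Known targets of STAT5 in B-cell progenitors were split. Of 20, 19 were tested, 7 were higher and 5 lower, and the median was 0.00. The list does not separate genes that STAT5 activates from genes it represses, so its counts and median give no direction of STAT5 activity. *Ccnd2* (cyclin D2) rose from 396 ± 15.5 to 1030 ± 60.3 CPM (1.37, adjusted p = 2.6e-05), while *Ccnd3* (cyclin D3) fell from 700 ± 28.8 to 401 ± 5.49 CPM (-0.80, adjusted p = 0.000241). *Myc*, the growth regulator, fell from 281 ± 2.37 to 132 ± 13.3 CPM (-1.09, adjusted p = 0.000133). *Il2ra* and *Igkc*, the κ light chain, rose by 1.77 and 1.35, and *Bcl6* by 0.80 (adjusted p = 8.32e-05, 1.95e-05 and 0.0453). Also called lower were *Pim1*, *Bcl2* and *Spred2* (-0.39, -0.46 and -0.49, adjusted p = 0.0149, 0.0264 and 0.0159). *Pim2* and *Mcl1* were called higher (0.40 and 0.25, adjusted p = 0.0272 and 0.0379), and these genes are named after their values were seen. The feedback inhibitors induced by STAT5 and STAT3, named here after their values were seen, were *Cish* (-0.05, adjusted p = 0.805), *Socs1* (-0.05, adjusted p = 0.757) and *Socs3* (0.08, adjusted p = 0.585), none of them called. *Socs2*, a further feedback inhibitor named after its value was seen, was called higher, from 402 ± 2.28 to 469 ± 8.58 CPM without overlap (0.22, adjusted p = 0.0543).

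Of 20 known targets of STAT3 and STAT6, 16 were tested, with 6 higher, 1 lower and a median of 0.09. Without *Il6ra* and *Prdm1*, which passed the filter through IRF4-RV alone, 4 of 14 were higher and the median was 0.04. *Gadd45g*, a stress-response gene, rose from 5.23 ± 1.21 to 29.3 ± 6.43 CPM (2.48, adjusted p = 0.000136). *Tnfrsf13c* (the BAFF receptor) and *Cd69* rose by 1.74 and 1.09 (adjusted p = 1.72e-05 and 0.000474), and *Il6ra* and *Bcl6* are given above. *Batf* fell by 0.51 (adjusted p = 0.0035). Genes occur in more than 1 list, so the lists are not independent of each other.

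**Figure D5:**
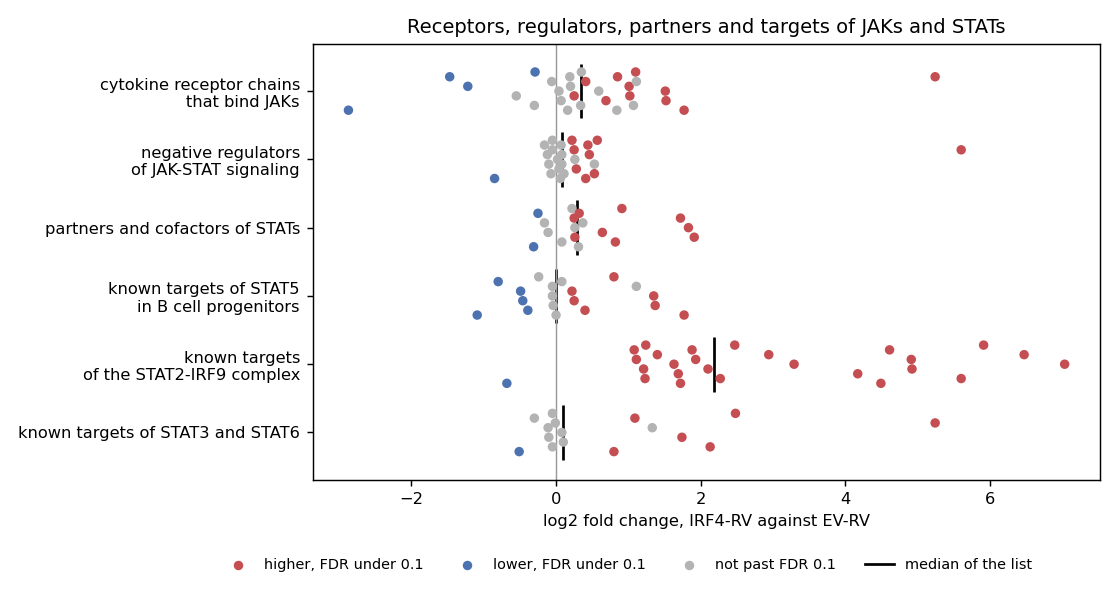
Log2 fold change (x axis) of each tested gene in the 6 lists, 1 point per gene, with red for higher and blue for lower at an FDR of 0.1 and a black bar at the list's median. Targets of the STAT2-IRF9 complex, which include *Stat2*, have a median of 2.19, while the medians of the other 5 lists lie between 0.00 and 0.35. These medians include genes that passed the filter on low counts through IRF4-RV alone. Without them, the medians are 1.88 for the STAT2-IRF9 targets, 0.34 for the receptor chains and 0.04 for the STAT3 and STAT6 targets.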

How the data were processed

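RNA from 4 T8 libraries was sequenced. Per the study's methods, the authors used STAR 2.4.0j for alignment to GRCm38 and featureCounts for counts per gene. The authors deposited raw counts without normalization for 55359 Ensembl identifiers. GENCODE M21 gave symbols and coordinates for 52083, and the other 3276 held 0.203% to 0.486% of a library's counts. Settings for strand and multiply aligned reads are not given in the sources used here. The labels' protocol text names T11, while the titles and tissue name T8, and the libraries were used as T8. Groups and replicate numbers came from the titles.

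Counts passing filterByExpr were fitted in R 4.3.3 with edgeR 4.0.16 (TMM factors 0.964 to 1.05, quasi-likelihood F test, group as the only term), with Benjamini-Hochberg adjustment over 14637 genes and an FDR cutoff of 0.1. CPM are counts scaled by library size and TMM factor, CPM per kb are divided by exon length, and intervals are 95% intervals from the fit. Replicates differed by more than sampling noise (chi-square per degree of freedom 14.1 in EV-RV and 13.1 in IRF4-RV) and were used as separate samples. The members and gene lists were chosen with earlier results of these data known. Besides the 9 members, *Irf4*, *Il7r*, *Il2rg*, *Crlf2* and *Il4ra*, up to 6 called genes per list with the largest log2 fold change and a mean of at least 1 CPM were named, and 1 partner gene is not reported here. Promoter sequences were from RefSeq (GRCm38.p6). The procedure was tested on simulated data for IRF4-RV against EV-RV, with 14637 genes of which 200 were changed. It recovered 20.8% of genes changed 1.3-fold, 53.2% at 1.5-fold, 68.4% at 2-fold and 92.4% at 4-fold. Of its calls, 16.2% were false, so the adjusted p-values were too small in this setting. In the data, 29.7% of genes were called, a larger share than was changed in the simulation. The changed genes were also drawn over all levels, so these rates may differ for the members. Alternatives were DESeq2 1.42.0, other scalings and filters, an FDR of 0.05, a replicate block and leaving out each library.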

Additional observations from a re-analysis of the deposited data

How the results depend on the processing

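*Stat2*, *Stat3* and *Stat6* kept their direction and their call under DESeq2, DESeq2's size factors or library size only in edgeR, both other filters on low counts, an FDR of 0.05, the replicate block and each library left out. Their log2 fold changes ran from 1.78 to 1.97, from 0.32 to 0.57 and from 0.26 to 0.38, with adjusted p-values of at most 0.0002, 0.0786 and 0.0732. With library size only, *Jak1* turned to -0.07 and *Stat5b* to -0.02. This scaling moved the share of called genes that were higher from 53.8% to 37.8%, and the median over all genes from 0.00726 to -0.0832 on the log2 scale. Without EV-RV replicate 2, *Jak1* turned to -0.12, and without IRF4-RV replicate 1, *Jak1* and *Stat5b* both turned to -0.04. Over the fits without 1 library, *Jak1* ranged from -0.12 to 0.17 and *Stat5b* from -0.04 to 0.17. These fits called 3 to 4 members higher and 0 lower, 1870 to 2017 of all genes higher and 1569 to 1703 lower, and 67 to 72 genes of the pathway lists in either direction. A lone library was there assumed to vary like the other group. *Jak2* was also called with a filter of 1 count (adjusted p = 0.0564). The replicate numbers are not said to mark a shared culture or day. Deviations of same-numbered libraries correlated with r = 0.284 across genes, which are not independent. With the replicate block, 6 members were called higher instead of 3, adding *Jak2*, *Jak3* and *Tyk2* (adjusted p = 0.00375, 0.0192 and 0.0495), and 6394 genes (43.7%) instead of 4349. The cause was not tested, and 22.2% of calls with the block were false in simulated data. Those data held no effect shared by same-numbered libraries, so this share cannot tell whether the added calls are false here. Each member had at least 294 counts in each library. With 2 libraries per group, changes under 1.5-fold were often missed in simulated data.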
